A study of Mus musculus with 12 samples.

Results

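The mitochondrial ribosomal proteins are the nuclear-encoded proteins of the ribosome that works inside mitochondria. Their genes were taken as every row whose symbol is Mrpl or Mrps, for the large or the small subunit, followed by a number and at most 1 further letter. Of 31722 rows in the table, 78 matched, 49 for the large and 29 for the small subunit. All 78 also met the filter of at least 0.5 RPKM (reads scaled by the length of the gene and by the reads of the library) in at least 6 of 12 hearts, as did 14087 genes in all, so no member lay outside the threshold and the lowest, Mrps17, averaged 1.94 RPKM. The rule itself used no measured difference between the groups, but the set was chosen with earlier results of these data known.

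Hearts came from C57BL/6J mice, 6 given carbon tetrachloride (CCl4), a liver poison with which cirrhosis is modelled, and 6 of a Control group. The comparison asks how liver cirrhosis bears on the heart. The labels give no age, sex, dose, length of treatment or collection time, and do not say whether atria were included. Heart tissue was sequenced as a whole, so fewer cells of a type and less RNA per cell cannot be told apart.

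The mitochondrial ribosome translates the messenger RNAs of the mitochondrial genome, all of which encode subunits of the respiratory chain and of ATP synthase. Its rRNAs are transcribed inside the organelle, while all of its proteins are made in the cytosol and imported, so every ribosome joins products of both genomes. Heart muscle depends on oxidative phosphorylation, and inherited defects of several of these proteins, MRPL3 and MRPL44 among them, are known in humans as causes of cardiomyopathy. Promoters of such genes often carry sites of the transcription factors GABP, NRF1 and YY1.

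The promoters below are those of the members of smallest p in each subunit (Mrpl3 and Mrps18b), of the member with the largest difference (Mrps21), and of the pair Mrps11 and Mrpl46, which are read in opposite directions from a shared start region. Each is the RefSeq window of 300 bases on GRCm38.p6 and is written 5′ to 3′ on the gene's strand. It ends shortly after the RefSeq transcription start, which can differ from the start in the GENCODE gene coordinates given below. The Mrps18b window, for example, ends short of the GENCODE start. Capitals mark exact matches to the GABP letters CCGGAAG, the NRF1 letters GCGCA and GCGC with 1 base of any kind between them, or the YY1 letters AANATGGCG, on either strand.
Mrpl3: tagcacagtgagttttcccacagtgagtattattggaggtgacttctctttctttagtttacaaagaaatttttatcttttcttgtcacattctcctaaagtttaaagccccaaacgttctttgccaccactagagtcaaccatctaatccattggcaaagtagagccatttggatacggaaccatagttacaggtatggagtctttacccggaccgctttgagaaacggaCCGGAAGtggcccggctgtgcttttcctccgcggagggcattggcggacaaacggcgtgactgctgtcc
Mrps18b: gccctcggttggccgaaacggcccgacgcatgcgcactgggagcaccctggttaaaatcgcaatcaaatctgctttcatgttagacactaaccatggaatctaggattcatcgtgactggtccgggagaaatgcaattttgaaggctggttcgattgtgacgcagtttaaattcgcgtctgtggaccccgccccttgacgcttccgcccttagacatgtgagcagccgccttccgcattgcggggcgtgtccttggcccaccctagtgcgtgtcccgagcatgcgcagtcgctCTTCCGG
Mrps21: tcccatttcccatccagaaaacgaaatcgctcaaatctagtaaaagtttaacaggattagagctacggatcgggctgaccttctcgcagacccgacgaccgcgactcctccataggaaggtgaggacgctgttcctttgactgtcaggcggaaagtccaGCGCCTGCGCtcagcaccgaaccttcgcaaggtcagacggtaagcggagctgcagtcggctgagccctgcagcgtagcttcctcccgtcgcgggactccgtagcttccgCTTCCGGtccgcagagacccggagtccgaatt
Mrps11: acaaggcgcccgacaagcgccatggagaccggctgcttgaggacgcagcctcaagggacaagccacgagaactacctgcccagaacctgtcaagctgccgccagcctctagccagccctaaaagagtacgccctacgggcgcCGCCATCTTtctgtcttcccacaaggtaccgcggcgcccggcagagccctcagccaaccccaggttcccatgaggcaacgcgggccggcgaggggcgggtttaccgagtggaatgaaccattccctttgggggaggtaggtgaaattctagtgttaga
Mrpl46: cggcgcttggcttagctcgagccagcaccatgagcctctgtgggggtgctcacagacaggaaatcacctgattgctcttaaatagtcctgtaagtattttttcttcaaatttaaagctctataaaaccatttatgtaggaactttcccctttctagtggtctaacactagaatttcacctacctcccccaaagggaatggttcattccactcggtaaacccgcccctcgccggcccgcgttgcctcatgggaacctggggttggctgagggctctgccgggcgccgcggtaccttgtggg
The windows lie at chr9:105053018-105053317 (plus strand, Mrpl3), chr17:35916391-35916690 (minus, Mrps18b), chr3:95871465-95871764 (minus, Mrps21), chr7:78782881-78783180 (plus, Mrps11) and chr7:78783040-78783339 (minus, Mrpl46). Mrpl3, Mrps18b and Mrps21 each hold a GABP match, Mrps21 holds an NRF1 match as well, and Mrps11 holds a YY1 match. The Mrpl46 window holds none, and it shares 141 bases with the Mrps11 window.

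RefSeq windows were found for 69 of the 78 members, 75 windows in all. The GABP letters stood in 34.7% of them, against 17.4% of the windows of protein-coding genes past the filter and 8.86% of all mouse windows. The NRF1 letters stood in 17.3% of the members' windows, against 10% and 4.6%, and the YY1 letters in 14.7%, against 5.24% and 2.38%. At least 1 of the 3 stood in 56.0% of the members' windows, against 28.7% of those of expressed protein-coding genes. The GABP and YY1 letters can overlap, and such matches were counted for both. A match is a description of letters and not of binding. The members' windows were slightly poorer in G and C (median 58.7%) than those of expressed protein-coding genes (60.7%).

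In hearts of CCl4-treated mice, messenger RNAs of the mitochondrial ribosome lay slightly lower than in Control hearts in both subunits, except where CCl4 replicate 3 was left out under median-of-ratios scaling, and no single member passed the test. The median log2 fold change (CCl4 minus Control after adding 1 to each RPKM, so that differences of weakly expressed genes come out too small) was -0.14 over the large and -0.16 over the small subunit, beside -0.05 over all genes tested. In the large subunit 46 of 49 members and in the small subunit 27 of 29 were below 0, in a table where 65.7% of all genes were below 0. At an adjusted p under 0.05 in limma's test over all 14087 genes, 0 members and 0 genes of the table (0.0%) were called, and the smallest adjusted p of a member was 0.328. At an unadjusted p under 0.05, 8 large and 4 small subunit members were lower, where 8.58% of all genes were. No member was higher at that p, where 1.6% of all genes were.

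Scaling moved the members and all other genes nearly alike, while 1 heart carried most of the distance between them. The median over the members minus the median over all genes was -0.09 for the large and -0.11 for the small subunit as deposited, -0.07 and -0.10 under median-of-ratios scaling, and -0.10 and -0.13 with TPM scaling. Without CCl4 replicate 3, at the deposited scaling, it was -0.02 for the large and -0.03 for the small subunit. The members' own medians were then -0.11 and -0.12, beside -0.08 over all genes, and 4 large and 2 small subunit members (8.16% and 6.9%) were lower at an unadjusted p under 0.05, where 14.2% of all genes were. Leaving out each of the other hearts in turn gave differences from all genes between -0.139 and -0.0656 for the large and between -0.163 and -0.0934 for the small subunit.

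Counts on either side of 0 and at an unadjusted p followed the scaling of the whole table. Under median-of-ratios scaling 798 genes were higher and 757 lower at an unadjusted p under 0.05, against 226 higher and 1209 lower as deposited. The members' medians were -0.07 for the large and -0.10 for the small subunit, 63 of 78 lay below 0, where 50.1% of all genes did, and no member had an unadjusted p under 0.05. With CCl4 replicate 3 left out as well, a choice made after seeing the data, 21 of 49 large and 12 of 29 small subunit members were below 0, where 48.4% of all genes were, with medians of 0.02 and 0.00. With limma's array weights, which give CCl4 replicate 5 a weight of 5.7 and CCl4 replicate 3 one of 0.258, 17 large and 9 small subunit members passed the adjusted threshold, all on the lower side, among 2249 genes.

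The mean log2(RPKM + 1) of the 49 large subunit genes in CCl4 replicates 1 to 6 was 3.64, 3.47, 3.41, 3.59, 3.55 and 3.59. In Control replicates 1 to 6 it was 3.48, 3.69, 3.77, 3.81, 3.74 and 3.57. As deposited, all 6 CCl4 hearts were below the Control median, against 4 of 6 under median-of-ratios scaling. The groups overlapped even as deposited, since Control replicates 1 and 6 lay among the CCl4 hearts. The group means were 3.54 ± 0.09 in CCl4 and 3.67 ± 0.13 in Control hearts (SD, n = 6 each).

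For the 29 small subunit genes the mean level was 3.46, 3.33, 3.24, 3.47, 3.41 and 3.46 in the CCl4 hearts. It was 3.35, 3.58, 3.59, 3.66, 3.61 and 3.44 in the Control hearts. The same hearts stood at the ends as for the large subunit: CCl4 replicate 3 was lowest and Control replicate 4 highest. CCl4 replicate 3 was the lowest of the 12 hearts for 40 of the 78 members and Control replicate 4 the highest for 33. Under median-of-ratios scaling CCl4 replicate 3 was lowest for 67 members, and CCl4 replicates 1 and 2 were highest for 32 and 22, so within the CCl4 group the order of the hearts changed with the scaling.

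**Figure D1:**
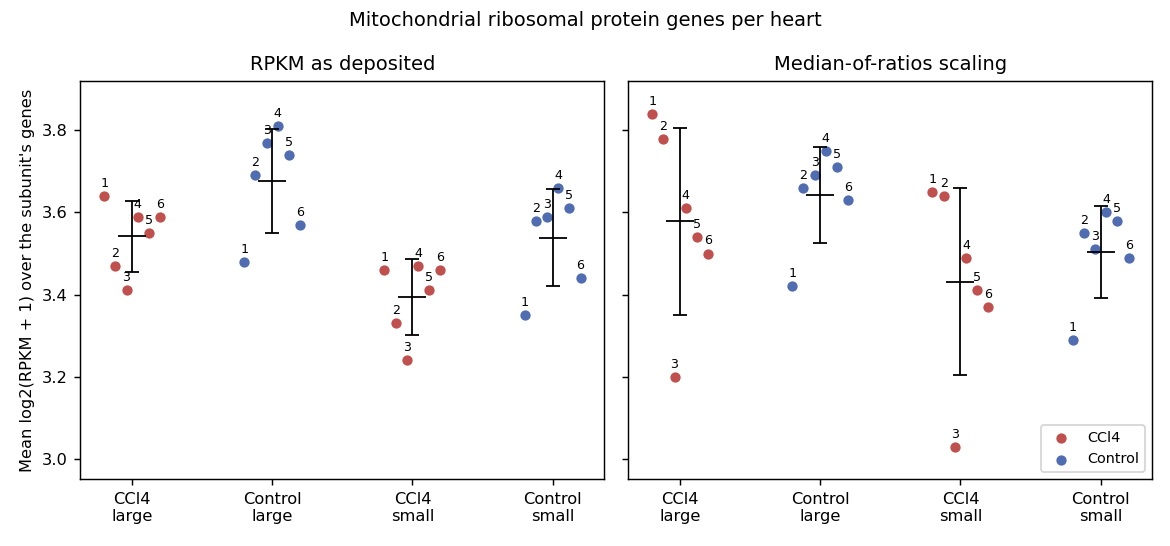
Mean log2(RPKM + 1) over the 49 large and 29 small subunit genes in each of the 12 hearts (points, with replicate numbers), with the group mean and SD (bars), as deposited on the left and with median-of-ratios scaling on the right. As deposited, all 6 CCl4 hearts lie below the Control median; with median-of-ratios scaling CCl4 replicates 1 and 2 lie highest and CCl4 replicate 3 lowest.

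Several properties of the libraries differed along with these levels, and their part in the result was not tested. The share of reads from the mitochondrial genome was 31.6% to 43.8% in CCl4 and 29.5% to 37.9% in Control hearts, and it was highest in CCl4 replicates 2 (43.8%) and 1 (40.5%). The summed level of 9 cardiomyocyte markers was 19800 RPKM in CCl4 replicate 3, with a range of 19800 to 29800 RPKM in CCl4 and 28100 to 35200 RPKM in Control hearts. The 8 fibroblast markers summed to 172 to 1080 RPKM in CCl4 and 159 to 381 RPKM in Control hearts, and the highest was again CCl4 replicate 3. The 7 leukocyte markers, of which 5 passed the filter, summed to 5.78 to 34.8 RPKM in CCl4 and 7.64 to 9.31 RPKM in Control hearts, with CCl4 replicate 3 at 34.8 RPKM. The 9 endothelial markers summed to 116 to 177 RPKM in CCl4 and 181 to 220 RPKM in Control hearts as deposited. Their mean log2 level was 3.58 to 4.15 in CCl4 and 4.15 to 4.42 in Control hearts as deposited. Under median-of-ratios scaling it overlapped, at 3.64 to 4.09 in CCl4 and 4.07 to 4.36 in Control hearts. At an unadjusted p under 0.05, 8 of the 9 were lower in both scalings, where 8.58% and 5.37% of all genes were. The median log2 fold changes of the 9 were -0.37 as deposited and -0.30 under median-of-ratios scaling. The 5 red cell markers were all higher at an unadjusted p under 0.05, where 1.6% of all genes were, with a median log2 fold change of 0.42. They summed to 157 to 244 RPKM in CCl4 and 116 to 235 RPKM in Control hearts. All 6 CCl4 hearts lay above the Control median of 142 RPKM. The 7 atrial markers ran from 836 to 11800 RPKM in CCl4 and from 610 to 15100 RPKM in Control hearts. With CCl4 replicate 4 and Control replicate 1, the libraries richest in atrial markers by their mean log level, both left out, the medians of the subunits were -0.20 and -0.22. The median over all genes was then -0.05. The subunits' differences from it were -0.155 and -0.173, against -0.09 and -0.11 with all hearts. Leaving out these libraries was a choice made after seeing the data. The 5 hepatocyte markers summed to at most 0.731 RPKM in any CCl4 and 0.603 RPKM in any Control heart.

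Levels of the members spread widely around a median of 10.3 RPKM in the large and 9.86 RPKM in the small subunit, against 2.69 RPKM over all genes past the filter. Of the 78, 2 were above 100 RPKM (Mrpl42 and Mrpl18) and 17 were under 5 RPKM. The coefficient of variation within groups was 6.94% to 21.1% with a median of 11.6%, while the mean RPKM of CCl4 hearts differed from that of Control hearts by a median of -10.9% (quartiles -13.8% and -7.23%), so a typical difference was about as large as the spread between hearts of a group.

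**Figure D2:**
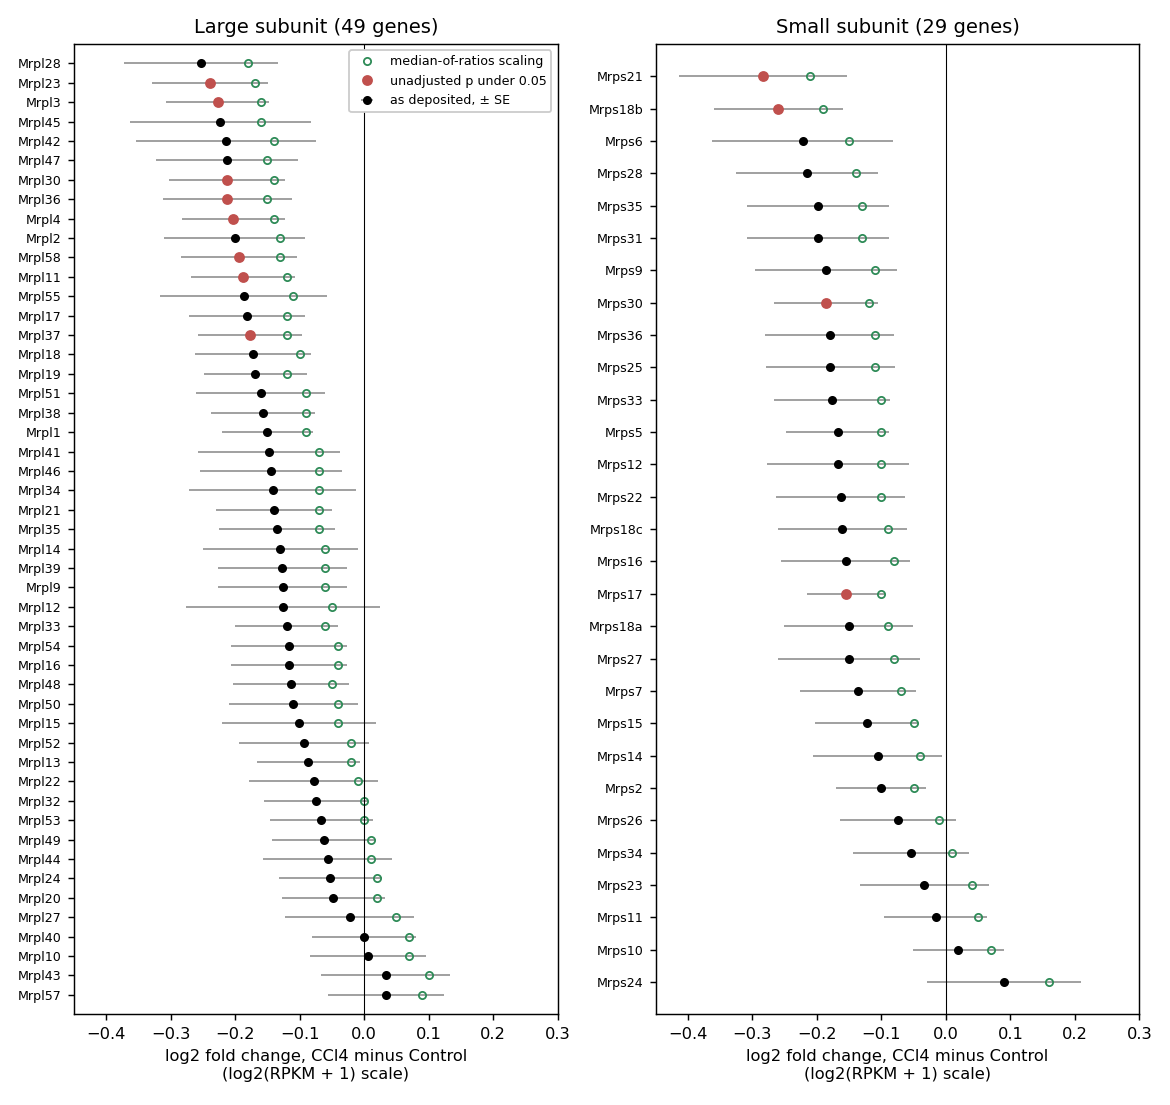
Log2 fold change (CCl4 minus Control) of each of the 49 large and 29 small subunit genes, with its standard error, as deposited (filled) and with median-of-ratios scaling (open); red marks an unadjusted p under 0.05. As deposited 73 of 78 genes lie left of 0, and with median-of-ratios scaling 63 do.

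Among the large subunit genes with relatives in bacteria, Mrpl3 had the smallest p. Mrpl3 (chr9:105053239-105079888, plus strand), whose protein lies near the site where peptide bonds are formed, was at 4.36, 4.38, 3.30, 3.97, 4.42 and 3.78 RPKM in CCl4 hearts. It was at 4.51, 4.83, 5.08, 5.01, 4.77 and 5.04 RPKM in Control hearts. Each CCl4 heart lay below each Control heart, with means of 4.03 ± 0.442 RPKM in CCl4 and 4.88 ± 0.218 RPKM in Control hearts (SD, n = 6 each). The log2 fold change was -0.23 with an SE of 0.08 (limma, adjusted p = 0.328), and -0.16 with median-of-ratios scaling. Groups that did not overlap, with CCl4 lower, were found in 2 members, Mrpl3 and Mrps17, and in 0.724% of all genes. No member was without overlap on the higher side, where 0.0355% of all genes were.

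Mrpl4 (chr9:21002738-21008839), a protein of the tunnel through which the new chain leaves, averaged 3.23 ± 0.282 RPKM in CCl4 and 3.87 ± 0.413 RPKM in Control hearts (log2 fold change -0.20, limma, adjusted p = 0.388). Mrpl23 (chr7:142532686-142540747), a relative of the bacterial protein at the mouth of that tunnel, was at 6.16, 4.80, 4.53, 5.16, 4.66 and 5.11 RPKM in CCl4 and at 4.98, 6.91, 5.82, 7.09, 6.37 and 5.88 RPKM in Control hearts. Control replicate 1 lay among the CCl4 hearts and CCl4 replicate 1 among the Control hearts. The Mrpl23 value is uncertain, because reads may be split between it and its pseudogene Mrpl23-ps1. In RPKM the pseudogene lay above the gene, at 13.3 to 21.3 in CCl4 and 16.7 to 24.8 in Control hearts. It is the shorter of the pair, with 580 exon bases against 4883. In the read steps described below it had fewer, 274 to 744 against 756 to 1644 for Mrpl23. Mrpl11, of the stalk that contacts translation factors, averaged 5.14 ± 0.585 RPKM in CCl4 and 5.97 ± 0.44 RPKM in Control hearts (log2 fold change -0.19). Mrpl30 averaged 14.6 ± 1.36 RPKM in CCl4 and 17.1 ± 1.65 RPKM in Control hearts (log2 fold change -0.21).

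Mrpl18 (chr17:12911349-12916345), a relative of the bacterial protein that binds the smallest rRNA, was the second most abundant member. Its CCl4 hearts were between 82.2 and 109 RPKM with a median of 97.4 RPKM, and its Control hearts between 87.6 and 120 RPKM with a median of 110 RPKM. All 6 CCl4 hearts lay below the Control median, but Control replicate 1 lay below all but CCl4 replicate 3. The gene overlaps Tcp1 on the opposite strand, which was at 34.8 ± 3.2 RPKM in CCl4 and 39.2 ± 4.92 RPKM in Control hearts. Mrpl19, among the lowest of the subunit, averaged 1.88 ± 0.204 RPKM in CCl4 and 2.24 ± 0.341 RPKM in Control hearts (log2 fold change -0.17). Mrpl36 averaged 2.27 ± 0.443 RPKM in CCl4 and 2.77 ± 0.321 RPKM in Control hearts (log2 fold change -0.21). It overlaps Ndufs6, a respiratory complex I subunit on the opposite strand, at 335 ± 54.1 RPKM in CCl4 and 418 ± 61.1 RPKM in Control hearts. The sources used here do not say whether reads were counted by strand, so reads in the short stretch that both genes share cannot be told apart.

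Large subunit proteins with no relative in bacterial ribosomes included the most abundant member. Mrpl42 (chr10:95480805-95501940) was at 369, 324, 222, 333, 298 and 314 RPKM in CCl4 hearts. It was at 254, 334, 384, 395, 405 and 388 RPKM in Control hearts. CCl4 replicate 3 and Control replicate 1 were the lowest of their groups. All CCl4 hearts but replicate 3 lay above Control replicate 1, and CCl4 replicate 1 lay above Control replicate 2 as well. The log2 fold change was -0.21 with an SE of 0.14 (limma, adjusted p = 0.63), and without CCl4 replicate 3 under median-of-ratios scaling it was 0.01. Mrpl37 averaged 3.96 ± 0.287 RPKM in CCl4 and 4.62 ± 0.5 RPKM in Control hearts (log2 fold change -0.18). Mrpl58, a peptide-releasing enzyme that rescues stalled ribosomes and is also built into the large subunit, averaged 7.38 ± 0.559 RPKM in CCl4 and 8.62 ± 1.09 RPKM in Control hearts (log2 fold change -0.19).

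The 3 large subunit members above 0 were Mrpl43 (log2 fold change 0.03), Mrpl57 (0.03) and Mrpl10 (0.01), the last of which anchors the stalk. All 3 were below 0 with TPM scaling, and none reached an unadjusted p under 0.05. Mrpl10 was at 3.33 to 4.2 RPKM in CCl4 hearts, all 6 of them within the span of the Control hearts, at 2.87 to 4.45 RPKM.

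**Figure D3:**
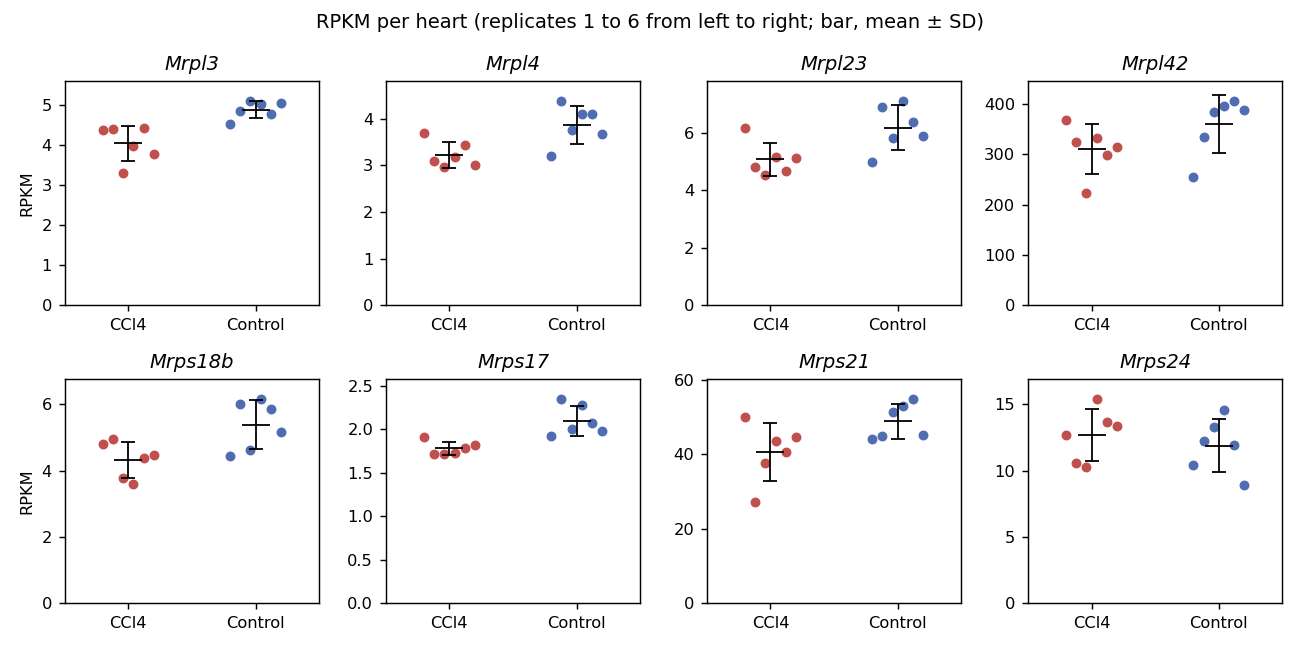
RPKM of 8 members in each heart (points, replicates 1 to 6 from left to right in each group) with the group mean and SD (bars); CCl4 left, Control right. Mrpl3 and Mrps17 do not overlap between the groups, and Mrps24 is the member furthest above 0, at 12.7 ± 1.94 RPKM in CCl4 and 11.9 ± 2.0 RPKM in Control hearts.

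In the small subunit Mrps18b (chr17:35910379-35916389, minus strand) had the smallest p. It is 1 of 3 mammalian relatives of the same bacterial protein, beside Mrps18a and Mrps18c. Mrps18b was at 4.81, 4.95, 3.77, 3.59, 4.38 and 4.46 RPKM in CCl4 hearts. It was at 4.45, 6.02, 4.63, 6.16, 5.87 and 5.16 RPKM in Control hearts. All CCl4 hearts lay below the Control median, and Control replicates 1 and 3 lay among them. The log2 fold change was -0.26 with an SE of 0.10 (limma, adjusted p = 0.376). Mrps18a, whose protein sits in the large subunit in solved structures despite its name, averaged 5.15 ± 0.679 RPKM in CCl4 and 5.83 ± 0.78 RPKM in Control hearts (log2 fold change -0.15). Mrps18c was the most abundant of the paralogs, with 21.7 ± 0.676 RPKM in CCl4 and 24.6 ± 3.71 RPKM in Control hearts (log2 fold change -0.16). Its 6 CCl4 hearts lay between 20.9 and 22.8 RPKM, inside the span of the Control hearts, from 18.5 to 29.3 RPKM.

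Mrps17 (chr5:129715497-129722556), an rRNA-binding protein of the core and the member of lowest level, was at 1.91, 1.72, 1.72, 1.73, 1.79 and 1.82 RPKM in CCl4 hearts. It was at 1.92, 2.35, 2.00, 2.28, 2.08 and 1.98 RPKM in Control hearts. The groups were separated by a narrow gap, between CCl4 replicate 1 and Control replicate 1. The log2 fold change was -0.15 with an SE of 0.06 (limma, adjusted p = 0.404).

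Mrps21 (chr3:95862634-95871519) had the largest difference of the 78, a log2 fold change of -0.28 with an SE of 0.13 (limma, adjusted p = 0.479). It was at 50, 27.0, 37.7, 43.5, 40.5 and 44.5 RPKM in CCl4 hearts and at 44.1, 44.9, 51.3, 52.9, 54.8 and 45.2 RPKM in Control hearts. CCl4 replicate 2 was far below the others, while CCl4 replicates 1 and 6 lay among the Control hearts. With single hearts left out its log2 fold change ran from -0.348 to -0.175.

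Mrps30, a mitochondrion-specific protein that also sits in the large subunit in solved structures, averaged 15.2 ± 1.28 RPKM in CCl4 and 17.4 ± 1.44 RPKM in Control hearts (log2 fold change -0.19). Mrps5, a relative of a bacterial protein near the entry of the messenger RNA, averaged 10.3 ± 0.675 RPKM in CCl4 and 11.7 ± 1.06 RPKM in Control hearts (log2 fold change -0.17). Mrps33 averaged 35.5 ± 3.31 RPKM in CCl4 and 40.2 ± 2.71 RPKM in Control hearts (log2 fold change -0.18). Mrps2, another of the lowest members, averaged 2.07 ± 0.203 RPKM in CCl4 and 2.29 ± 0.206 RPKM in Control hearts (log2 fold change -0.10). Mrps36, whose protein is now known as a subunit of the α-ketoglutarate dehydrogenase complex and not of the ribosome, averaged 10.3 ± 1.41 RPKM in CCl4 and 11.8 ± 1.17 RPKM in Control hearts (log2 fold change -0.18), within the range of the other members. Under median-of-ratios scaling without CCl4 replicate 3, the log2 fold changes of Mrps18a (0.02), Mrps33 (0.00), Mrps2 (0.00) and Mrps36 (0.01) were not below 0. Above 0 were Mrps24 (log2 fold change 0.09, limma, adjusted p = 0.85) and Mrps10 (0.02, but below 0 with TPM scaling).

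**Figure D4:**
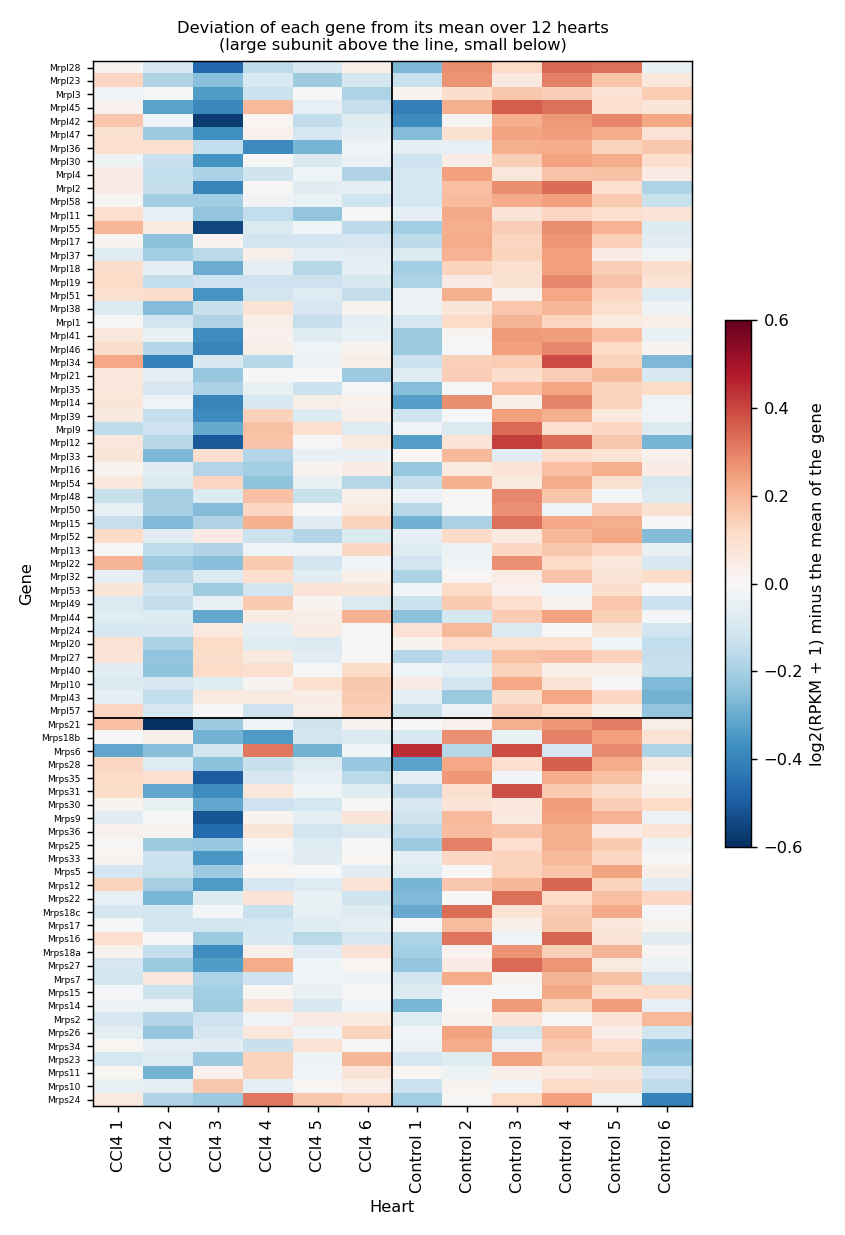
Deviation of log2(RPKM + 1) in each heart from the gene's mean over the 12 hearts, for the 49 large (above the line) and 29 small subunit genes (below), CCl4 hearts on the left. CCl4 replicate 3 is lowest for 40 of 78 genes and Control replicate 4 highest for 33, while Control replicates 1 and 6 are each lowest for 9.

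Over all members, 32 of 78 had all 6 CCl4 hearts below the Control median, which 11.1% of all genes had. By motif, the median log2 fold change was -0.15 in the 26 members with a GABP match and -0.14 in the 43 without. It was -0.13 in the 13 with an NRF1 match and -0.15 in the 56 without, and -0.15 in the 11 with a YY1 match and -0.14 in the 58 without. The difference between members with and without these letters was not tested. Of the factors' own genes, Gabpa was at 7.27 ± 0.634 RPKM in CCl4 and 8.23 ± 0.703 RPKM in Control hearts (log2 fold change -0.16, limma, adjusted p = 0.522). Nrf1 was at 0.866 ± 0.199 RPKM in CCl4 and 0.947 ± 0.0795 RPKM in Control hearts (log2 fold change -0.07), and Yy1 at 7.07 ± 1.89 RPKM in CCl4 and 7.06 ± 0.596 RPKM in Control hearts (-0.03).

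Many members share their start region with another gene. An opposite-strand protein-coding gene started within 500 bases of 25 of the 78 members (32.1%), against 13.5% of the 11072 protein-coding genes past the filter. For Mrps11 and Mrpl46 that partner is the other member. Mrps11 averaged 9.0 ± 0.951 RPKM in CCl4 and 9.08 ± 0.491 RPKM in Control hearts (log2 fold change -0.02). Mrpl46 averaged 21.7 ± 2.75 RPKM in CCl4 and 24.1 ± 3.19 RPKM in Control hearts (log2 fold change -0.14). Of 19 tested partners that are not members, 15 were below 0, where 65.7% of all genes were. The partners' median was -0.05, equal to that of all genes to 2 decimals. Mrps12 (log2 fold change -0.17) starts beside the mitochondrial seryl-tRNA synthetase Sars2 (-0.01), Mrpl32 (-0.07) beside the proteasome subunit Psma2 (-0.16), and Mrpl49 (-0.06) beside Fau, which encodes a protein of the cytosolic ribosome (0.04).

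Other proteins of the mitochondrial ribosome and its helpers were read from the same fit. Under median-of-ratios scaling without CCl4 replicate 3 the medians of the lists below were 0.03 for the further subunits, -0.01 for assembly, 0.04 for translation factors, -0.01 for the synthetases and -0.01 for transcription. As deposited, 65.7% of all genes were below 0. In that setting, of 5 subunits whose symbols do not follow the pattern (Dap3, Ptcd3, Aurkaip1, Chchd1 and Gadd45gip1), 5 were below 0. Their median was -0.12. Ptcd3 was at 9.56 ± 1.23 RPKM in CCl4 and 11.3 ± 1.07 RPKM in Control hearts (log2 fold change -0.22, limma, adjusted p = 0.45), and Aurkaip1 at 21 ± 0.985 RPKM in CCl4 and 22.9 ± 1.52 RPKM in Control hearts (-0.12). Of 28 tested genes of ribosome assembly and rRNA modification, 25 were below 0 (median -0.11). At an unadjusted p under 0.05, 6 of them were lower, where 8.58% of all genes were. The assembly factor Mterf4 was at 10.8, 10.1, 10.3, 10.2, 10.8 and 10 RPKM in CCl4 hearts and at 14.7, 14.5, 12.1, 14.3, 11.9 and 12.7 RPKM in Control hearts. Its groups did not overlap, with CCl4 lower, as in 0.724% of all genes (log2 fold change -0.33, SE 0.08, limma, adjusted p = 0.179). The rRNA methyltransferase gene Rnmtl1 was at 5.93 ± 0.985 RPKM in CCl4 and 7.63 ± 1.08 RPKM in Control hearts (log2 fold change -0.32).

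Of all genes, 65.7% were below 0 as deposited, the share to set beside each list here. Of 16 translation factors, 12 were below 0 with a median of -0.09. The initiation factor Mtif2 was at 7.55 ± 0.433 RPKM in CCl4 and 8.96 ± 0.779 RPKM in Control hearts (log2 fold change -0.22, limma, adjusted p = 0.348), and the membrane insertase Oxa1l at 7.63 ± 0.444 RPKM in CCl4 and 8.54 ± 0.813 RPKM in Control hearts (-0.14). Of 20 mitochondrial aminoacyl-tRNA synthetases and their helpers, 16 passed the filter and 16 were below 0 (median -0.13), among them Tars2 (log2 fold change -0.16) and Aars2 (-0.16). Of 16 genes of mitochondrial transcription and its regulators, 13 were below 0 with a median of -0.08. Polrmt, the mitochondrial RNA polymerase, was at 1.76, 1.44, 1.37, 1.70, 1.76 and 1.83 RPKM in CCl4 hearts and at 2.11, 2.34, 2.12, 2.54, 2.48 and 1.91 RPKM in Control hearts. Its groups did not overlap, with CCl4 lower, as in 0.724% of all genes (log2 fold change -0.30, SE 0.08, limma, adjusted p = 0.214).

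The transcripts of the mitochondrial genome lay on both sides of 0. The rRNA of the small mitochondrial subunit, mt-Rnr1, was at 1010, 1020, 587, 788, 725 and 798 RPKM in CCl4 hearts and at 1030, 1090, 824, 943, 999 and 1040 RPKM in Control hearts. CCl4 replicates 3 to 6 lay below all Control hearts, while CCl4 replicates 1 and 2 lay among them (log2 fold change -0.28, limma, adjusted p = 0.492). The rRNA of the large subunit, mt-Rnr2, had 786 ± 216 RPKM in CCl4 and 930 ± 84.2 RPKM in Control hearts (log2 fold change -0.28, adjusted p = 0.554). The libraries were made with a kit for messenger RNA, so rRNA reads are what remained after that selection. The 13 mitochondrial messenger RNAs that the ribosome translates were all above 0, with a median of 0.22. At an unadjusted p under 0.05, 6 of the 13 were higher, where 1.6% of all genes were. Of these mt-Nd4l was at 45700 ± 6260 RPKM in CCl4 and 33700 ± 5600 RPKM in Control hearts (log2 fold change 0.44, limma, adjusted p = 0.264). The smallest p belonged to mt-Co2, at 2.92 ± 0.569 RPKM in CCl4 and 1.96 ± 0.281 RPKM in Control hearts, but a level so far under the other mitochondrial genes makes its value uncertain, since nuclear copies may take its reads.

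The proteins of the cytosolic ribosome give a measure of the same kind. Of 85 tested symbols, 73 were below 0 as deposited, where 65.7% of all genes were, and the median was -0.08. With median-of-ratios scaling 46 were below 0 with a median of -0.01, and in a scaling without mitochondrial RNA 38 were, with a median of 0.01. Without CCl4 replicate 3, at the deposited scaling, 79 of 85 were below 0, where 76.0% of all genes were. The cytosolic median was then -0.135, lower than the mitochondrial medians of -0.108 (large subunit) and -0.116 (small subunit), and that of all genes was -0.0838. Rpl27 had the smallest p, at 63.7 ± 5.48 RPKM in CCl4 and 74.0 ± 7.4 RPKM in Control hearts (log2 fold change -0.21, limma, adjusted p = 0.432), and Rps14 was at 40.0 ± 3.97 RPKM in CCl4 and 45.4 ± 2.37 RPKM in Control hearts (-0.18). The difference between the mitochondrial and the cytosolic list was not tested.

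**Figure D5:**
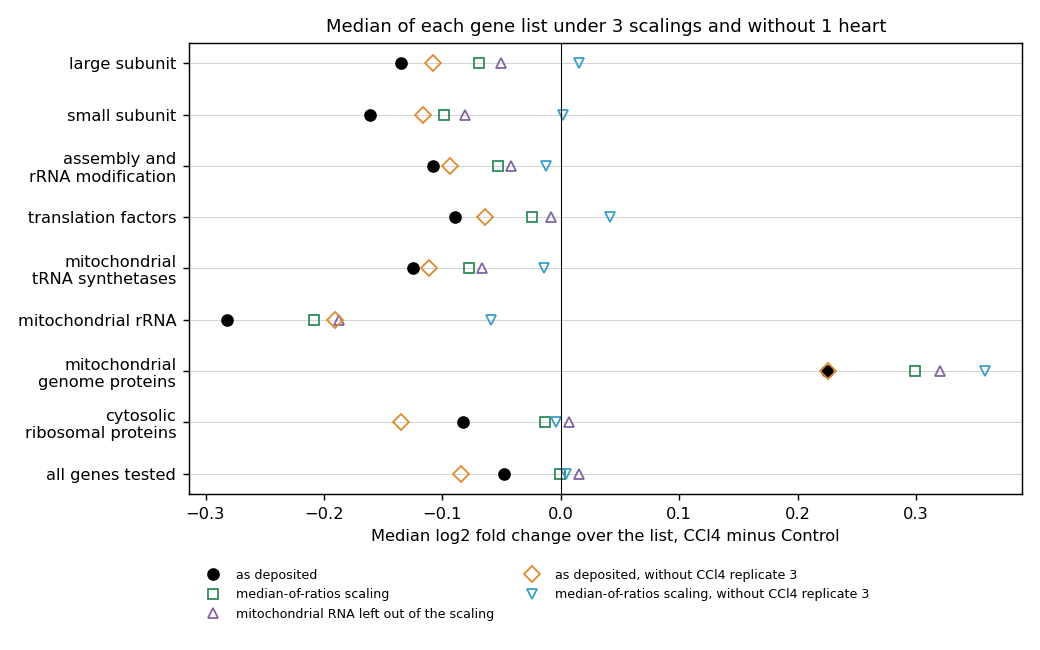
Median log2 fold change (CCl4 minus Control) of the members of each subunit, of related gene lists and of all genes tested, under 3 scalings and without CCl4 replicate 3. The large subunit's median is -0.14 as deposited, -0.07 with median-of-ratios scaling, -0.05 in a scaling without mitochondrial RNA, and 0.02 with median-of-ratios scaling without CCl4 replicate 3.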

How the data were processed

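A stranded kit for messenger RNA was used on 12 mouse hearts, per the labels' protocols. The deposited values are RPKM, scaled by the authors, 1 column per heart; Trimmomatic 0.36, featureCounts of Subread 1.5.1 and GRCm38 are named in the submitters' processing notes. The aligner, annotation and strand setting are not given in the sources used here. Genes with at least 0.5 RPKM in at least 6 libraries were fitted as log2(RPKM + 1) over all 12 libraries with limma 3.58.1 (trend, no covariate; R 4.3.3), two-sided, with Benjamini-Hochberg adjustment over 14087 genes and a threshold of 0.05. No set test was run. P-values refer to the spread between these 12 mice.

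RPKM multiplied by GENCODE M21 exon length came in steps: among values of at most 30 steps, 92.7% to 93.9% were whole to within 0.05 step. Even numbers of steps made up 71.3% to 75.6% of them, and whether 1 step is a whole fragment is not known. The relative depth was 39678075 to 63405815 steps in CCl4 and 26350765 to 57818765 in Control libraries, and the smallest value of a member rested on 85 steps. Coordinates are from GENCODE M21 on GRCm38. The fit was tested on simulated data.

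The members and the gene lists were chosen with earlier results of these data known. Named members are, per subunit, the 6 of smallest p, the 2 of highest and 2 of lowest level and up to 3 above 0, plus Mrps18a, Mrps18b, Mrps18c, Mrps30 and Mrps36; each related list gave the 2 of smallest p. Other genes were named for their position beside a member or as a factor whose motif was searched, and Mrpl58 completes the 12 members at an unadjusted p under 0.05. Alternatives covered the pseudocount, filter, scaling, array weights, an atrial covariate, the replicate block, voom on the recovered steps and each heart left out. Plots were drawn with matplotlib 3.10.9 and tables made with pandas 2.3.3 in Python 3.11.15.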

Additional observations from a re-analysis of the deposited data

Results flagged for a closer look

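In groups of 6 hearts, a sample set apart from its group by Dixon's test was found for 3 of 54 tested values, and chance gives about 1 in 20. Mrpl18 in Control replicate 1 was at 87.6 RPKM, below the other Control hearts at 108 to 120 RPKM. Mrpl19 in CCl4 replicate 1 was at 2.29 RPKM, above the other CCl4 hearts at 1.75 to 1.85 RPKM. Mrps10 in CCl4 replicate 3 was at 3.23 RPKM, above the other CCl4 hearts at 2.65 to 2.86 RPKM, although the same heart was the lowest of all for 40 of the 78 members.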

How the results depend on the processing

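The count of genes past the threshold, 0 as deposited, was 3 with TPM scaling, 2249 with array weights, 20 with an atrial covariate, 1 without both atrium-rich libraries, and 0 to 47 with single hearts left out (47 without CCl4 replicate 1 and 31 without Control replicate 1). For the large subunit, the count of members lower at an unadjusted p under 0.05 (8) was 26 with array weights, 17 without both atrium-rich libraries, 1 with the replicate block, and 0 with median-of-ratios scaling (with or without CCl4 replicate 3), with quantile normalization and with mitochondrial RNA left out. For the small subunit (4) it was 21, 14, 1 and 0 under the same alternatives, and 8 with TPM scaling. Of all genes, 20.2% were lower at that p with array weights, 10.6% without both atrium-rich libraries, 6.15% with the replicate block, 5.37% with median-of-ratios scaling (5.45% without CCl4 replicate 3), 5.84% with quantile normalization, 4.2% with mitochondrial RNA left out and 10.6% with TPM scaling, against 8.58% as deposited. With single hearts left out these counts ran from 2 to 17 and from 1 to 13, lowest without Control replicate 4 (5.93% of all genes) and highest without Control replicate 1 (10.7%). Medians then ran from -0.182 to -0.108 and from -0.207 to -0.116, members below 0 from 44 to 49 and from 26 to 28, and members past the threshold stayed at 0. Array weights called 17 and 9 members. Median-of-ratios scaling without CCl4 replicate 3 gave medians of 0.0158 and 0.00224, with 21 and 12 members below 0, and turned Mrpl42 (0.0102), Mrps18a (0.0199), Mrps2 (0.00224), Mrps33 (0.0034) and Mrps36 (0.0149). TPM scaling turned Mrpl10 (-0.0538), Mrpl43 (-0.0331), Mrpl57 (-0.0277) and Mrps10 (-0.0368), voom turned Mrpl10 (-0.00683), and array weights turned Mrps10 (-0.0275). With single hearts left out, Mrpl10 ran from -0.0464 to 0.0524, Mrpl43 from -0.02 to 0.0829, Mrpl57 from -0.01 to 0.0663 and Mrps10 from -0.0109 to 0.0452. The causes were not tested. The sample titles do not say whether replicate numbers pair the hearts, and so few correlations cannot settle it. The correlation of same-numbered deviations was -0.474 to 0.232, and 2 of 6 hearts were closest to their own number. Both added alternatives were chosen after seeing the data.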
